A study of Sus scrofa with 10 samples.

Results

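The ligands and receptors that steer growing axons and migrating neurons were followed across the cell classes, stages and preparations of the pig entorhinal cortex. The genes were taken by name, without regard to their counts: every symbol in the count tables that begins with SEMA, PLXN, EFNA, EFNB, EPHA or EPHB and goes on with a number or a letter and a number, together with NRP1, NRP2, ROBO1, ROBO2, SLIT1, SLIT2, SLIT3, DCC, UNC5C and UNC5D. This gave 60 of 22452 genes, namely 7 class 3 semaphorins, 13 semaphorins of classes 4 to 7, 11 plexins and neuropilins, 7 ephrins, 14 Eph receptors, 5 SLIT and ROBO genes, and DCC with its relatives UNC5C and UNC5D.

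Semaphorins of class 3 are secreted and act through a neuropilin that binds the ligand and a plexin that signals, whereas most other semaphorins sit in the membrane and bind plexins directly. Ephrins are held in the membrane by a lipid anchor (the A type) or a transmembrane stretch (the B type) and bind Eph receptor tyrosine kinases on the neighbouring cell, with signals running in both directions. SLIT proteins are secreted and repel axons through ROBO receptors, and DCC and the UNC5 proteins are receptors for netrins. In the developing cortex these families are known for guiding callosal and subcortical axons, sorting layers and placing interneurons, and several of them also pattern blood vessels.

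The medial entorhinal cortex was dissected from fetuses of sows of Danish Landrace and Yorkshire breed mated to Duroc boars, and from an adult sow. Cells were freed with papain, or nuclei were sorted on a DNA dye, and single-cell 3′ RNA-seq libraries were made with the 10x Genomics version 2 chemistry. There was 1 whole-cell library at embryonic day 50 (E50_1, 3 pooled brains), 3 at day 60 (E60_1 and E60_2 of 1 brain each and E60_3 of 2 pooled brains) and 3 at day 70 (E70_1 of 2 pooled brains, E70_2 and E70_3 of 1 brain each). There was also 1 adult whole-cell library (Adult_1) and 1 library of nuclei each at day 70 (E70_nc) and from the adult (Adult_nc), each from 1 brain. Brain numbers follow the labels, from which the study's own sample list differs for E70_1 and E70_3. The paper names no genetic modification or experimental treatment of the animals, and a pooled library averages its brains. The fetuses were male and female, and the adult sows had been killed for another study by sodium phenobarbital overdose. The paper's Results give the postnatal stage as a postnatal day, while its Methods list adult sow tissue for the libraries. Only day 60 and day 70 whole cells had replicate libraries of 2 stages, and these were tested. Comparisons between classes are descriptions, because the classes were made from the same cells. So are those with nuclei and the adult, which have 1 library each.

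The 10 libraries held 28229 cells with between 2336865 and 55755512 molecules (unique molecular identifiers, UMIs) per library, and median UMIs per cell of 690 in the adult nuclei, 2616 in the day 70 nuclei and 4251 to 9403 in whole cells. Of 44 clusters, 9 with 4524 cells could not be named, and 1573 erythroid-like cells were left out, leaving 26656 cells ("kept cells"). Some libraries stood apart. E60_1 and E60_2 held no excitatory-like and no interneuron-like cells: 0 of 8171 and 0 of 3479 cells allow shares of up to 0.0367% and 0.0862% for counting error, so every value of these neurons at day 60 comes from E60_3. Clusters with the defining markers of Purkinje-like (217 cells), granule-like (633) and photoreceptor-like cells (156) were present although the tissue was labelled entorhinal cortex. A total of 449 cell barcodes occurred in 2 or more libraries (901 cells). Clusters were named from fixed marker lists, so the marker sums describe the classes and are no check of the names. The 9 excitatory markers summed to 1315 CPM (UMIs per 1000000 UMIs of the class) in excitatory-like cells and to 71.3 CPM in the glial class of astrocytes and radial glia. The 6 endothelial markers present in the files summed to 2994 CPM in endothelial-like cells.

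Of the 60 genes, 59 had at least 1 UMI. EFNB3, a B-type ephrin, was listed at 0 in every library, which over 197675805 UMIs allows up to 0.0152 CPM for counting error. Levels are given in CPM of the UMIs summed over the cells of a class, which are not scaled by gene length, so a gene was compared between classes and not with other genes. For each role the 3 members with the highest class level, at 20 CPM or more, are described by library or by range. Members named beyond those were chosen after their values were seen. In at least 1 class of 50 or more cells, 47 members reached 20 CPM and 32 reached 100 CPM. Among all 19317 genes with a UMI, 12029 and 5243 did so. The highest class level of a member had a median of 107.5 CPM, against 37.7 CPM over all genes. The 3 netrin receptors and all 5 SLIT and ROBO genes were above 100 CPM somewhere, as were 6 of 14 Eph receptors, 6 of 11 plexins and neuropilins, 4 of 7 ephrins, 3 of 7 class 3 semaphorins and 5 of 13 other semaphorins.

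**Figure D1:**
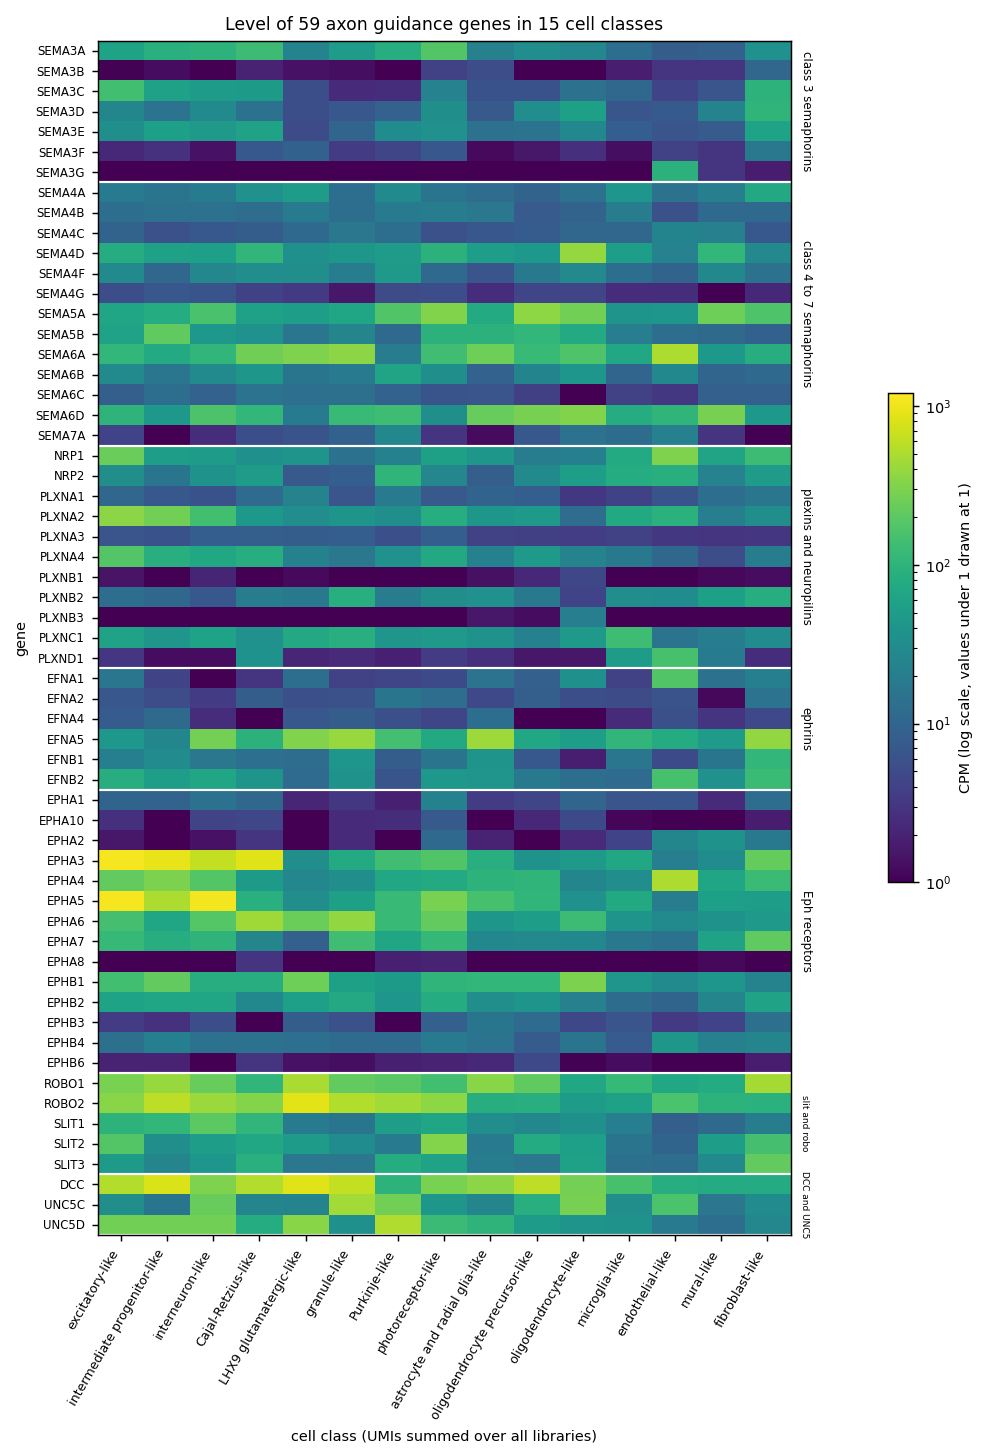
Colour gives the level, in CPM on a log scale, of each of the 59 members with a UMI (rows, grouped by role) in 15 cell classes (columns), from UMIs summed over all libraries. EPHA3 and EPHA5 exceed 1000 CPM in excitatory-like cells, EPHA4 and SEMA6A are highest in endothelial-like cells, and EFNA5 is spread over glial, granule-like and fibroblast-like cells.

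Which class was highest depended on how classes and levels were made: of 59 members, 39 kept their highest class when the median over libraries replaced the pooled level, 45 without batch correction, 47 at a Louvain resolution of 0.8, 48 without E60_1 and E60_2 and 57 without doublets. The astrocyte and radial glia-like class was highest for 3 members by the pooled level and for 0 by the median over libraries or without E60_1 and E60_2. By the pooled level, endothelial-like cells held the highest level of 9 members, fibroblast-like cells of 8, Purkinje-like cells of 6, and excitatory-like, oligodendrocyte-like and photoreceptor-like cells of 5 each. All 5 of the excitatory-like genes and all 9 of the endothelial-like genes were at 20 CPM or more, and of all genes at that level 1.62% and 8.07% peaked in those 2 classes. Of the 47 members at that level, fibroblast-like cells were highest for 6, Purkinje-like cells for 5, and oligodendrocyte-like and photoreceptor-like cells for 4 each. The shares of all genes in these classes were 8.15%, 10.9%, 13.4% and 11.9%. The 5 excitatory-like genes were EPHA3, EPHA5, PLXNA2, PLXNA4 and SEMA3C. The count for excitatory-like cells was 3 when clusters were made without batch correction, since EPHA5 then peaked in interneuron-like and SEMA3C in fibroblast-like cells. The members were left out of the genes used for clustering, but the clusters were made from the same cells. EPHA3, SEMA3C, SLIT2 and PLXNA4 were among the 10 leading genes of an excitatory-like cluster and EFNA5 of an astrocyte and radial glia-like cluster. Their levels there describe the clusters and carry no test.

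Among the class 3 semaphorins, SEMA3C had its highest pooled level in excitatory-like cells. Its level there was 49.4 CPM in E50_1, 266 in E60_3, 286 in E70_1, 135 in E70_2 and 130 in E70_3, and 6.27, 9.25, 29.4, 13.0 and 9.80 CPM in the astrocyte and radial glia-like cells of the same libraries. The 2 ranges did not overlap, and E50_1 was the lowest of the excitatory-like values. Fibroblast-like cells came second by pooled level, with 97.6 CPM against 138 CPM. The excitatory-like value was the higher one in only 1 of 2 libraries compared for both classes. SEMA3A, a classical repellent, had its highest pooled level in photoreceptor-like cells, with 221 CPM in E50_1, 85.7 in E70_1 and 342 in E70_3, and lay between 40.1 and 98.8 CPM in excitatory-like whole cells. SEMA3D reached 104 CPM in fibroblast-like cells, where it was 60.9 CPM in Adult_1, 158 in Adult_nc, 50.7 in E50_1, 112 in E60_1 and 174 in E60_3. The fibroblast-like sums of Adult_nc and E60_1 held only 88738 and 89152 UMIs of all genes. SEMA3G, an endothelial class 3 semaphorin named here after its values were seen, ranged from 29.4 to 108 CPM over 6 endothelial-like libraries with a median of 85.5, while its second class by pooled level, mural-like cells, had 2.94 CPM. SEMA3B and SEMA3F stayed below 20 CPM in every class, and SEMA3E reached 61.7 CPM in fibroblast-like cells.

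Of the plexins and neuropilins, which receive these signals, the 3 with the highest levels were PLXNA2, NRP1 and PLXNA4. PLXNA2 in excitatory-like cells was 330 CPM in E50_1, 433 in E60_3, 254 in E70_1, 325 in E70_2 and 380 in E70_3, and 67.1, 40.4, 45.8, 62.6 and 26.9 CPM in the astrocyte and radial glia-like cells of these libraries. PLXNA4, a partner of neuropilins, was 218, 161, 139, 111 and 189 CPM in the same excitatory-like cells against 21.8, 31.7, 49.1, 41.0 and 22.6 CPM. For both plexins the lowest neuronal library lay above the highest glial one. NRP1 was high in 2 classes that are otherwise far apart: it ranged over 102, 275 and 374 CPM (lowest, median and highest of 6 libraries) in endothelial-like cells and was 198, 380, 236, 221 and 167 CPM in the excitatory-like cells of E50_1, E60_3, E70_1, E70_2 and E70_3. These 2 ranges overlapped, while interneuron-like whole cells had only 20.6 to 67.7 CPM. PLXND1, a plexin of blood vessels, had 152 CPM in endothelial-like cells and 49.2 CPM in microglia-like cells, and PLXNC1 had its highest level, 134 CPM, in microglia-like cells. PLXNB3 had 20.9 CPM in oligodendrocyte-like cells and 1.58 CPM in the next class. It was 120 CPM in the oligodendrocyte-like cells of E60_1 but 9.43 in Adult_1 and 1.43 in Adult_nc, so that library set its place.

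Of the membrane-bound and other semaphorins, SEMA6A was highest in endothelial-like cells, ranging over 147, 477 and 600 CPM (lowest, median and highest of 6 libraries), and it ranged over 101, 187 and 404 CPM in 8 whole-cell libraries of astrocyte and radial glia-like cells. These ranges overlapped. SEMA4D, known from oligodendrocytes and immune cells, was 362 CPM in Adult_1, 435 in Adult_nc and 434 in E60_1 in oligodendrocyte-like cells, and its second class by pooled level, mural-like cells, had 111 CPM. The 3 oligodendrocyte-like libraries agreed closely for SEMA4D, although they did not for PLXNB3. SEMA5A, which can attract or repel axons, was 230 CPM in E50_1, 191 in E60_1, 155 in E60_2 and 346 in E70_3 in oligodendrocyte precursor-like whole cells. In nuclei it was 850 CPM at day 70 (22 nuclei with 35289 UMIs of all genes) and 1868 CPM in the adult, both above the whole cells. There is no adult whole-cell value for this class. SEMA5B was highest in intermediate progenitor-like cells, with 127 CPM in E50_1, 271 in E60_3, 139 in E70_2 and 316 in E70_3. SEMA4G and SEMA6C stayed below 20 CPM in all classes.

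Among the ephrins, EFNA5, a ligand of EphA receptors, varied widely between libraries of 1 class. In astrocyte and radial glia-like cells it was 682 CPM in E50_1, 330 in E60_1, 813 in E60_2, 12.7 in E60_3, 62.2 in E70_1, 58.3 in E70_2, 16.6 in E70_3 and 103 in Adult_1. E50_1, E60_1 and E60_2 were thus above all others, and within the class the level was 1084 CPM in cluster 10, which is led by DBX1, EFNA5 and PAX3, 670 in cluster 9 and 26.0 in cluster 25. EFNA1 was highest in endothelial-like cells, at 54.5, 133 and 203 CPM (lowest, median and highest of 6 libraries), and its second class, oligodendrocyte-like cells, had 34.8 CPM. EFNB2, a marker of arterial endothelium, was 51.6, 128 and 183 CPM over the same 6 libraries, but fibroblast-like cells lay within that range, between 56.4 and 166 CPM over 5 libraries. EFNB1 reached 110 CPM in fibroblast-like cells, and EFNA2 and EFNA4 stayed below 20 CPM.

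Of the Eph receptors, which receive ephrins, EPHA3 and EPHA5 peaked in excitatory-like and EPHA4 in endothelial-like cells. EPHA3 was 856 CPM in E50_1, 1551 in E60_3, 1225 in E70_1, 1181 in E70_2 and 969 in E70_3 in excitatory-like cells, and 139, 234, 245, 173 and 112 CPM in the astrocyte and radial glia-like cells of those libraries. Intermediate progenitor-like cells had 1018, 1003, 825 and 850 CPM in E50_1, E60_3, E70_2 and E70_3, and this range overlapped the excitatory-like one. EPHA5 was 1299, 1160, 699, 947 and 650 CPM in the excitatory-like cells of E50_1, E60_3, E70_1, E70_2 and E70_3 and 399, 1339, 765, 794 and 872 CPM in the interneuron-like cells. The 2 neuron classes therefore overlapped for EPHA5, and the excitatory-like value was higher in 3 of 6 fetal libraries that held both classes, the day 70 nuclei included. EPHA4, which binds both ephrin types, was highest in endothelial-like cells, at 450, 524 and 767 CPM (lowest, median and highest of 6 libraries), above the 78.7 to 375 CPM of excitatory-like whole cells. EPHA8, EPHA10, EPHB3 and EPHB6 stayed below 20 CPM in every class.

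Of the SLIT and ROBO genes, ROBO2 and ROBO1 had their highest pooled levels in LHX9 glutamatergic-like cells, nearly all of which came from 1 library: 912 and 491 CPM in E50_1, against 347 and 252 CPM from 20 cells of E60_1. By the median over libraries, ROBO2 was instead highest in intermediate progenitor-like and ROBO1 in fibroblast-like cells. ROBO2 in excitatory-like cells was 137 CPM in E50_1 and 526.1, 466.1, 546.1 and 313.1 CPM in E60_3, E70_1, E70_2 and E70_3, so the day 50 library was the lowest. In interneuron-like cells ROBO2 stayed between 328 and 377 CPM over 5 whole-cell libraries. SLIT2 in excitatory-like cells was 220, 246, 155, 34.1 and 114 CPM in E50_1, E60_3, E70_1, E70_2 and E70_3, with E70_2 far below the rest, and in oligodendrocyte precursor-like whole cells it lay between 75.0 and 80.0 CPM in all 4 libraries. SLIT1 was the only member with its highest pooled level in interneuron-like cells, where it was 57.7 CPM in E50_1, 242 in E60_3, 209 in E70_1, 159 in E70_2 and 228 in E70_3. SLIT3 reached 221 CPM in fibroblast-like cells.

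DCC was spread over all classes of 50 or more cells, with 78.0 CPM in fibroblast-like cells as its lowest level, and peaked in LHX9 glutamatergic-like (852 CPM) and intermediate progenitor-like cells (814 CPM). In the latter it was 445 CPM in E50_1, 1005 in E60_3, 496 in E70_2 and 1192 in E70_3. In excitatory-like cells DCC was 423, 759, 698, 550 and 347 CPM in E50_1, E60_3, E70_1, E70_2 and E70_3, a range that overlapped the progenitors. UNC5D, known from migrating upper-layer neurons, was 617 CPM in E50_1 and 166 in E60_1 in Purkinje-like cells, and 123 to 428 CPM in excitatory-like whole cells. UNC5C, best known from cerebellar granule cells, was 561, 375 and 85.8 CPM in the granule-like cells of E50_1, E60_1 and E60_2. The granule-like cells of E60_2 (58 cells) stood apart from the other 2 libraries also for DCC (2142 CPM, against 388 and 667) and EFNA5 (2190 CPM, against 299 and 159).

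Excitatory-like and astrocyte and radial glia-like cells were compared in the 5 whole-cell libraries that held both, counting a gene when the 2 classes differed at least 2-fold in the same direction in every library. Of 37 members tested at 20 CPM or more, 8 were higher in excitatory-like cells in all 5 libraries, and none was lower. These were EPHA3, SEMA3C, PLXNA2, SLIT2, EPHA5, SEMA4F, NRP1 and PLXNA4, a set that holds a ligand of the neuropilin pathway beside its receptor parts. That is 21.6% of members, where 2.77% of all 9002 genes were higher and 5.64% lower by the same count. In the RefSeq annotation of Sscrofa11.1, EPHA3 lies on chromosome 13 from 166592492 to 166942791, EPHA5 on chromosome 8 from 63285006 to 63604734, SEMA3C on chromosome 9 from 99114649 to 99432683, NRP1 on chromosome 10 from 56280673 to 56430832 and PLXNA2 on chromosome 9 from 134584760 to 134800471. Counts cover the exons and introns of a gene. The mean log2 difference was 3.59 ± 0.74 (SD, n = 5) for SEMA3C, 3.22 ± 0.33 for NRP1, 2.86 ± 0.70 for PLXNA2, 2.71 ± 0.29 for EPHA3 and 1.81 ± 0.53 for EPHA5. Over all 37 members the median was 0.90, and over all genes it was -0.02.

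The 2 neuron classes were compared in the same way. In 6 libraries, the day 70 nuclei among them, EFNA5 and UNC5C were at least 2-fold higher in interneuron-like than in excitatory-like cells in each, and SEMA3C and NRP1 were lower, out of 35 tested. Over all genes 0.596% were higher and 0.25% lower. EFNA5 was 580, 193, 170, 184 and 225 CPM in the interneuron-like cells of E50_1, E60_3, E70_1, E70_2 and E70_3, against 47.8, 15, 70.1, 62.4 and 42.8 CPM in the excitatory-like cells. UNC5C was 339, 208, 128, 162 and 228 CPM against 19.2, 23.6, 36.2, 45.8 and 35.0 CPM. Neither gene's ranges overlapped. Against excitatory-like cells, the intermediate progenitor-like cells of 4 libraries were higher for SEMA5B and lower for SLIT2 and NRP1 out of 33 tested, beside 1.63% of genes higher and 1.3% lower. NRP1 in progenitors was 19.9, 74.5, 31.6 and 62.5 CPM in E50_1, E60_3, E70_2 and E70_3, each below the excitatory-like value of its library.

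**Figure D2:**
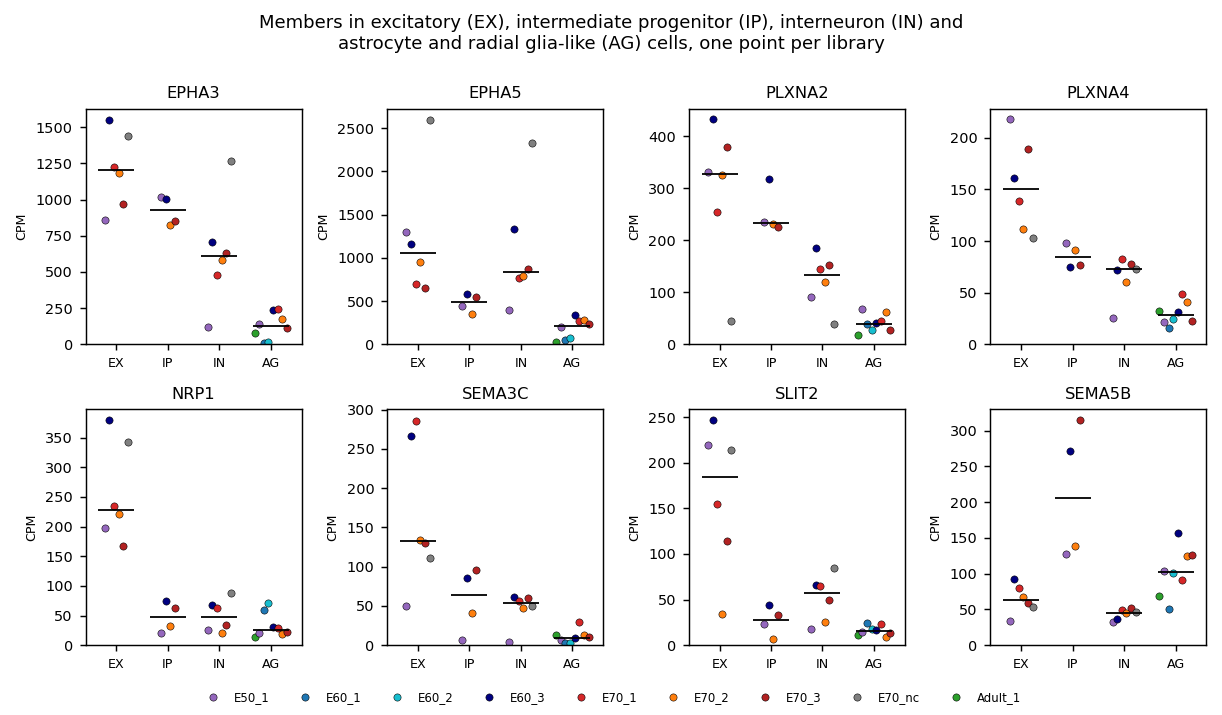
Points give the level in CPM of 8 members in excitatory (EX), intermediate progenitor (IP), interneuron (IN) and astrocyte and radial glia-like (AG) cells, 1 point per library coloured by library, with a bar at the median. NRP1, SEMA3C and SLIT2 separate EX from the other 3 classes in most libraries, EPHA3 is as high in IP as in EX, and SEMA5B has its highest median in IP.

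Endothelial-like and astrocyte and radial glia-like cells were compared in 6 libraries. Of 40 members tested, 8 were at least 2-fold higher in endothelial-like cells in each library, namely SEMA3G, PLXND1, EPHA2, SEMA6B, EPHA4, EFNA1, SEMA7A and NRP1, and SEMA5B, ROBO1 and EFNB1 were lower. Over all genes 7.25% were higher and 8% lower, so the 3 lower members (7.5%) were near the background. PLXND1 was 169 CPM in E50_1, 135 in E60_1, 170 in E60_2, 188 in E60_3, 169 in E70_3 and 44.2 in Adult_1 in endothelial-like cells, and its mean log2 difference from the glial cells was 5.54 ± 1.39 (SD, n = 6). Without E60_1 and E60_2, 9 members were higher, PLXNA2 being added, and 3 were lower, beside 7.84% and 8.79% of genes.

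PLXNA2 and NRP2 differed among the endothelial-like libraries. PLXNA2 was 308 CPM in E60_3 and 424 in E70_3 but 141, 59.1, 53.4 and 93.1 CPM in E50_1, E60_1, E60_2 and Adult_1. NRP2, a co-receptor known from lymphatic and venous endothelium, was 399 and 432 CPM in E60_3 and E70_3 but 88.5, 53.7, 57.4 and 27.6 CPM in the other 4. The 2 high libraries shared a sequencing pool. In microglia-like cells, too, NRP2 was 192 and 266 CPM in these 2 libraries against 27.0 to 79.6 CPM in the other whole-cell libraries. The summed excitatory markers in the endothelial-like cells were 41.4 and 62.5 CPM in E60_3 and E70_3 and 6.79 to 39.0 CPM elsewhere, and their part in these levels was not tested.

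**Figure D3:**
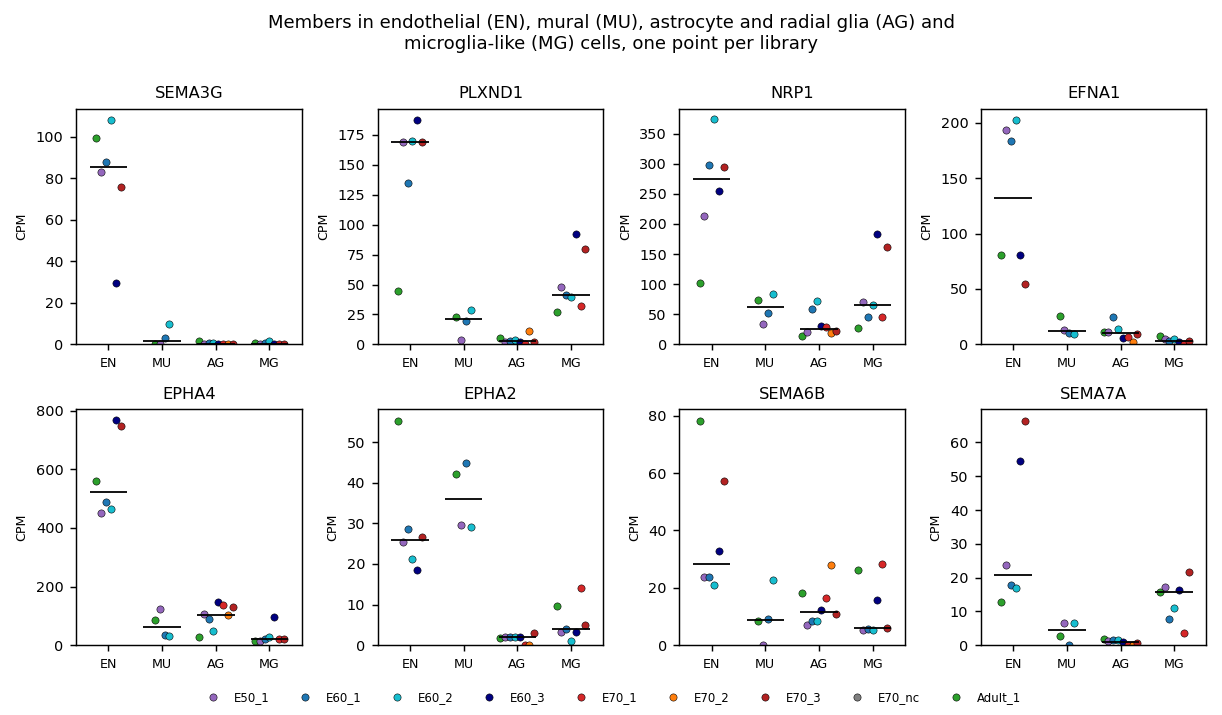
Points give the level in CPM of 8 members in endothelial (EN), mural (MU), astrocyte and radial glia (AG) and microglia-like (MG) cells, 1 point per library coloured by library, with a bar at the median. Within each library that holds both classes all 8 lie higher in EN than in AG, PLXND1 is also present in MG, and the adult point is the lowest EN value for PLXND1 and NRP1.

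Microglia-like and oligodendrocyte precursor-like cells were set beside the same glial class, and few members differed in every library. In 7 libraries PLXND1 alone was higher in microglia-like cells, and SEMA6D, SEMA5B and SEMA6A were lower, out of 33 tested, beside 5.75% of genes higher and 5.48% lower. EPHA3 and EPHA5 in the microglia-like cells of E60_3 stood out at 318 and 333 CPM, against 9.89 to 98.5 and 16.4 to 98.7 CPM in the other 6 whole-cell libraries of at least 20 cells and 73.8 and 49.2 CPM in the adult nuclei. The summed excitatory markers there were 137 CPM in E60_3, 128 in E50_1 and 14.4 to 35.2 CPM in the other 5 whole-cell libraries and 59.02 CPM in the adult nuclei, and their part in these levels was not tested. In 4 libraries, NRP2 and SLIT2 were higher and EFNB1 lower in oligodendrocyte precursor-like cells, out of 30 tested, beside 3.28% of genes higher and 3.39% lower. Without E60_1 and E60_2, 7 members were higher (DCC, SEMA6B, NRP2, SLIT2, UNC5C, SEMA4F and PLXNA4) and 2 lower out of 34, beside 6.99% and 4.61% of genes. Erythroid markers summed to 36340 and 64600 CPM in the oligodendrocyte precursor-like cells of E60_1 and E60_2 and to 197 and 820 CPM in those of E70_3 and E50_1, and their part was not tested.

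The excitatory-like cells themselves were not uniform. Whole cells fell mainly into 4 clusters, numbered 0, 4, 6 and 14, of 1512, 1451, 1331 and 678 cells, and cluster 14 had the highest level of FEZF2, a marker of deep-layer subcortical projection neurons (183 CPM, against 17.2 to 24.8). Of 34 members with a mean of 20 CPM or more, 9 (26.5%) varied at least 4-fold among the 4 clusters, where 6.66% of 7733 genes did. These were DCC, EPHA3, SEMA3A, SEMA3C, SEMA3E, SEMA5B, NRP1, ROBO2 and SLIT2. All 9 were lowest in cluster 14, and 7 of them were highest in cluster 6. Of the 515 genes that varied as much, 51.3% were lowest in cluster 14 and 47% highest in cluster 6. Over all 34 members 22 (64.7%) were lowest in cluster 14, against 37.1% of all genes, and 15 (44.1%) highest in cluster 6, against 44.2%. EPHA3, SEMA3C and SLIT2 are among the leading genes of clusters 0 or 6, so these shares describe how the clusters differ and are no test.

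The 2 libraries that held all 4 clusters with at least 20 cells were E50_1 and E70_3. EPHA3 in cluster 14 was 289 CPM in E50_1 and 351 in E70_3, against 1042 to 1181 and 1081 to 1456 CPM in the other 3 clusters. NRP1 in cluster 14 was 35.0 and 62.5 CPM, against 187 to 368 and 112 to 286 CPM. DCC was 158 and 115 CPM in cluster 14 and 935 and 998 CPM in cluster 6, with cluster 4 of E70_3 (129 CPM) close to cluster 14. ROBO2 was 531 and 653 CPM in cluster 6, but in E50_1 it was lower in cluster 4 (66.4 CPM) than in cluster 14 (90.6 CPM). SEMA3C did not keep the order: in E50_1 cluster 14 had the highest level (65.6 CPM, against 40.1 to 52.3), and in E70_3 it had the lowest (30.3 CPM, against 72.0 to 307). Running the other way, EFNA1 was highest in cluster 14 in both libraries (68.7 and 13.99 CPM), as was EFNA5 (88.2 and 88.8 CPM, against 26.2 to 39.9 and 12.7 to 26.8).

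Between day 60 and day 70, no member passed the test in any of the 3 groups of cells that had enough libraries. Counts were summed per library and tested with edgeR's quasi-likelihood test, with Benjamini-Hochberg adjustment over all genes. The libraries came from different brains, some pooled, so the spread holds both animal and technical differences. In all kept cells 0 of 58 members and 0 of 16721 genes (0%) were called, the lowest adjusted p of a member being 0.125. At an unadjusted p under 0.05 there were 13 members (5 higher and 8 lower at day 70) and 29.2% of genes. In the astrocyte and radial glia-like class, which held only 20 and 31 cells in E70_1 and E70_2, 0 of 49 members and 0% of 13558 genes were called, the lowest adjusted p of a member being 0.237, with 9 members and 14.2% of genes at an unadjusted p under 0.05. In microglia-like cells, with 3 against 2 libraries, 0 of 47 members and 0% of 12529 genes were called, the lowest adjusted p of a member being 0.372, with 6 members and 10.8% of genes at an unadjusted p under 0.05. Excitatory-like, interneuron-like, endothelial-like and the other classes had fewer than 2 libraries on 1 side and were not tested.

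DESeq2 called 7 members in all kept cells, beside 16.6% of genes. EPHA1 and EPHA6 were higher at day 70, and EFNA1, PLXNB2, PLXND1, ROBO1 and SEMA3G were lower. DESeq2 gave no adjusted p for EPHA3 and EPHA5. EPHA1 was 1.78, 2.74 and 5.08 CPM in E60_1, E60_2 and E60_3 and 47.8, 61.1 and 4.19 CPM in E70_1, E70_2 and E70_3, so E70_3 lay with the day 60 libraries (log2 difference 3.45 ± 0.90, SE, n = 3 and 3, adjusted p = 0.125 with edgeR). The same 2 libraries were the high ones for EPHA1 in astrocyte and radial glia-like cells (52.3 and 58.3 CPM) and in microglia-like cells (59.8 and 77.9 CPM). EPHA6 was 53.0, 47.5 and 89.2 CPM at day 60 and 184, 159 and 94.7 CPM at day 70, without overlap (1.09 ± 0.33, adjusted p = 0.125 with edgeR). EFNA1 was 43.3, 95.5 and 12.3 CPM at day 60 and 9.49, 6.29 and 11.5 CPM at day 70, also without overlap. ROBO1 was 252, 281 and 285 CPM at day 60 and 200, 138 and 167 CPM at day 70 (-0.85 ± 0.27, adjusted p = 0.126 with edgeR). PLXND1 was 34.6, 82.3 and 28.6 CPM at day 60 and 12.2, 14.1 and 16.7 CPM at day 70 in all kept cells. Within endothelial-like cells, however, it was 135, 170 and 188 CPM at day 60 and 169 CPM in E70_3, and there were 610, 711 and 44 such cells at day 60 and 3, 9 and 41 at day 70.

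**Figure D4:**
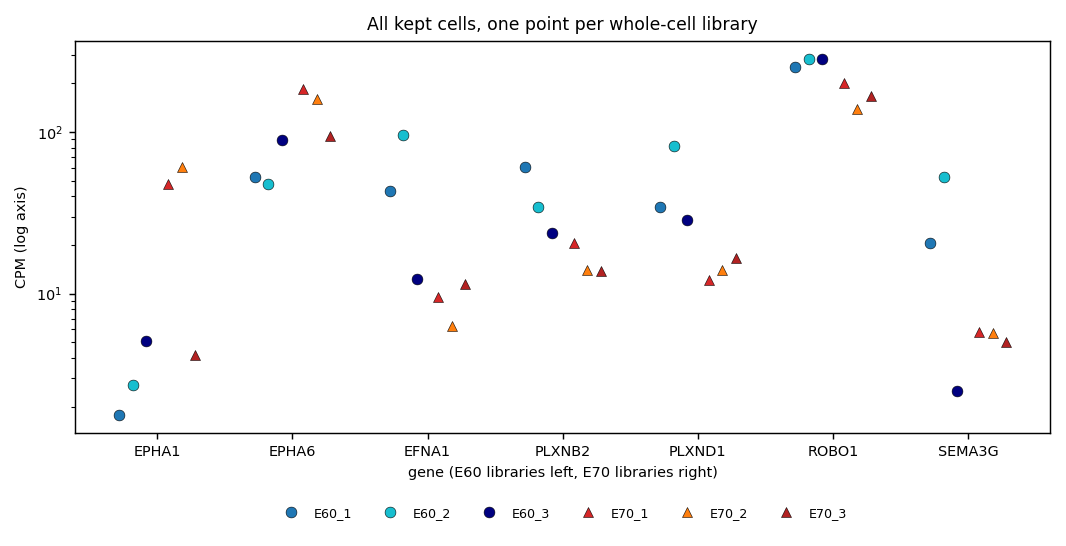
Points give the level in CPM, on a log axis, of the 7 members called by DESeq2 in all kept cells, with the 3 day 60 libraries (circles) left of the 3 day 70 libraries (triangles). EPHA1 is high in E70_1 and E70_2 alone, and EFNA1, PLXND1 and SEMA3G are high in E60_1 and E60_2, except that E60_3 lies close to E60_1 for PLXND1.

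The makeup of the libraries moved with these differences. In all kept cells the 6 endothelial markers summed to 608, 1481 and 329 CPM in E60_1, E60_2 and E60_3 and to 292, 244 and 261 CPM in E70_1, E70_2 and E70_3, and the 9 excitatory markers to 37.9, 16.7 and 472 CPM and to 292, 714 and 664 CPM. The part of this makeup in the 7 differences was not tested. Without E60_3, the only day 60 library with excitatory-like and interneuron-like cells, 27 members were called (16 higher, 11 lower) beside 34.6% of genes. EPHA3 was then 24.5 and 22.8 CPM at day 60 against 610 to 771 CPM at day 70. With E60_3 alone for day 60, 1 library stood against 3, so only the size of the differences is given. The median log2 difference was -0.12 over the members and 0.02 over all genes. The log2 differences of EPHA3 and EPHA5, 1.18 and 0.98 with all libraries and not called by edgeR there, were then -0.32 and -0.40. Without E70_3, EPHA1 and EPHA6 were called (3.45% of members, beside 8.7% of genes).

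In the astrocyte and radial glia-like class DESeq2 called EPHA1 and ROBO1, beside 5.09% of genes. ROBO1 was 469, 596 and 119 CPM in E60_1, E60_2 and E60_3 and 72.0, 73.4 and 122 CPM in E70_1, E70_2 and E70_3, so E60_3 lay with day 70. The class was made up differently in these libraries: cluster 25, with 119 CPM of ROBO1 against 279 to 485 CPM in the other 4 clusters, held 4 and 3 cells of E60_1 and E60_2 but 151 of 293 in E60_3, 7 of 20, 4 of 31 and 159 of 406 in E70_1, E70_2 and E70_3. The part of this in the difference was not tested. Without E60_3, edgeR called EPHA3 (higher) and ROBO1 (lower), beside 0.388% of genes, and without E70_3 it called EPHA1 (2.04% of members), beside 6.84% of genes. In microglia-like cells DESeq2 called EPHA1 and SEMA6D, beside 2.43% of genes. SEMA6D was 115, 122 and 42.8 CPM at day 60 and 17.6, 18.3 and 17.7 CPM at day 70, E70_2 being left out of the fit for its 19 cells. In the same order the astrocyte and radial glia markers in these microglia-like cells summed to 1121, 990 and 291 CPM and to 91.4, 156 and 123 CPM, and the erythroid markers to 16680, 27910 and 7450 CPM and to 538, 298 and 642 CPM. SEMA6D was up to 405 CPM in the astrocyte and radial glia-like class, and the part of these markers was not tested. Of the sequencing pools, 2 held both days, E60_1 with E70_1 and E60_3 with E70_3. Over all kept cells 11 of the 59 members were higher at day 70 in both pools and 12 lower in both, while 27 were higher in the first pool and lower in the second and 9 the reverse. No share over all genes stands beside these counts, so they cannot show a trait of the members. Of the 7 called by DESeq2, EPHA1 was 1.78 against 47.8 CPM in the first pool and 5.08 against 4.19 CPM in the second, and EPHA6 was 53.0 against 184 and 89.2 against 94.7 CPM.

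Other genes of the axon guidance pathway, a list that includes netrins and other receptors and of which 60 were in the files, were counted in the same fits. The sums over all kept cells allowed a test of 57, the astrocyte and radial glia-like sums of 54 and the microglia-like sums of 53, and edgeR called 0 in each, with 8, 8 and 12 at an unadjusted p under 0.05. DESeq2 called 2 higher and 1 lower, 2 higher and 1 lower, and 0 higher and 5 lower. Over all genes DESeq2 called 16.6%, 5.09% and 2.43%. With edgeR 29.2%, 14.2% and 10.8% of all genes had an unadjusted p under 0.05. The lowest p of these genes in all kept cells was that of MICAL2, an actin-oxidizing effector of plexins (log2 difference 1.67 ± 0.46, SE, n = 3 and 3 libraries, adjusted p = 0.125 with edgeR). VASP, an actin filament elongation factor, had the next lowest p, with -1.29 ± 0.41 (adjusted p = 0.126 with edgeR).

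The day 70 nuclei and whole cells gave different levels for most members, as for most genes. In all kept cells 22 of 37 members were above all 3 day 70 whole-cell libraries in the nuclei and 4 were below, and the background was 38.7% above and 37.4% below over all genes. In excitatory-like cells 21 of 36 were above and 6 below, beside 38.6% and 34.9% of genes. In interneuron-like cells 19 of 37 were above and 6 below, beside 35.1% and 35.5% of genes. EPHA5 in excitatory-like nuclei was 2598 CPM, against 699, 947 and 650 CPM in E70_1, E70_2 and E70_3. EPHA7, another EphA receptor, was 616 CPM against 46.7, 76.1 and 87.3 CPM, the largest upward difference among these 36 members (3.18 on the log2 scale). In the other direction, PLXNA2 was 44.2 CPM in nuclei against 254, 325 and 380 CPM, and EFNB1 was 0.455 CPM (1 UMI) against 13.7, 20.1 and 15.1 CPM. PLXNA2 was the lower one in interneuron-like nuclei too (38.5 CPM, against 120 to 152).

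**Figure D5:**
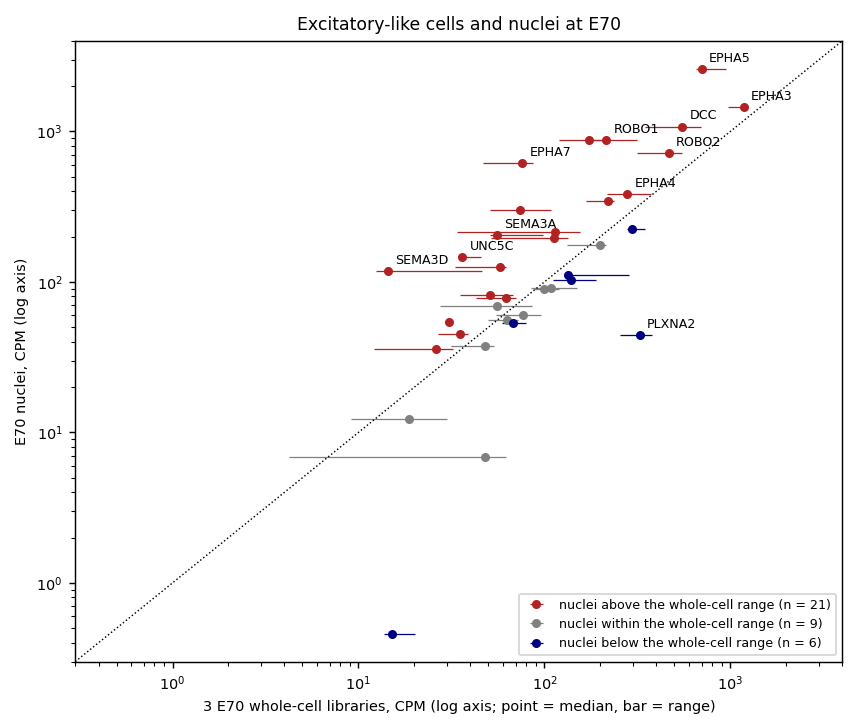
Each point is a member in excitatory-like cells at day 70, with its level in CPM in nuclei (vertical, log axis) against the median of the 3 whole-cell libraries (horizontal, log axis) and a bar for their range. The 21 members above the whole-cell range include EPHA5, EPHA7 and ROBO1, and PLXNA2 and EFNB1 (the lowest point) lie farthest below it.

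The excitatory-like nuclei came in part from other clusters than the whole cells, 257 and 120 of the 494 being in clusters 29 and 38, which held 63 and 21 whole cells. Cluster 14 held both, with 55 nuclei and 219 whole cells of E70_3, and was looked at after the data were seen. There, EPHA5 was 3179 CPM in nuclei (699 UMIs) and 337 CPM in whole cells, EPHA7 273 and 112 CPM, and PLXNA2 59.1 (13 UMIs) and 127 CPM. SEMA3C, lower in nuclei over the whole class, was 91.0 CPM (20 UMIs) against 30.3 CPM in this cluster. Interneuron-like nuclei had 2333 CPM of EPHA5, against 765, 794 and 872 CPM in the whole cells of E70_1, E70_2 and E70_3.

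The adult libraries had no replicate. In microglia-like cells UNC5C was at least 2-fold above every fetal whole-cell library in Adult_1 (93.7 CPM, against 14.1 to 42.4 CPM in 6 libraries), the only 1 of 40 members, and none was lower, beside 2.75% and 1.67% of genes. The oligodendrocyte markers in these microglia-like cells summed to 1115 CPM in Adult_1 and 52.5 to 148 CPM in the fetal libraries, UNC5C was 139 CPM in the oligodendrocyte-like cells of Adult_1, and the part of this was not tested. In endothelial-like cells none of 40 was higher and 5 were lower, namely SEMA6D, PLXND1, ROBO2, SEMA6A and NRP1, beside 6.48% and 6.17% of genes. NRP1 was 102 CPM in the adult against 214 to 374 CPM in 5 fetal libraries, SEMA6A 147 against 384 to 600 CPM, and ROBO2 30.4 against 110 to 188 CPM. In those adult cells the 6 endothelial markers summed to 1914 CPM against 2810 to 3610 CPM in the fetal libraries, and the oligodendrocyte markers to 977 against 25.3 to 79.6 CPM. Their part in the lower levels was not tested.

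In astrocyte and radial glia-like cells PLXNC1 was higher in Adult_1 (244 CPM, against 19.1 to 57.3 CPM in 7 fetal libraries) and EPHA5 was lower (23.5 CPM, against 53.4 to 344), beside 5.87% and 5.62% of genes. The oligodendrocyte markers there summed to 2575 CPM in Adult_1 and 38.9 to 128 CPM in the fetal libraries, and the microglia markers, whose class had the highest PLXNC1, to 233 against 28.3 to 104 CPM. Of the 57 adult cells 55 were in cluster 3, whereas the fetal cells were spread over 5 clusters, with 86.0 CPM of EPHA5 in cluster 3 and 400 CPM in cluster 25. The part of these markers and clusters was not tested. In oligodendrocyte-like cells Adult_1 could be set beside 1 fetal library only, E60_1, where 11 of 27 members were higher and 9 lower, beside 27.7% and 16.4% of genes. Among the 9, SEMA6D was 164 against 1092 CPM, SEMA5A 92.6 against 932 CPM, EPHB1 138 against 935 CPM and SLIT2 16.6 against 194 CPM. Among the 11, NRP2, a semaphorin co-receptor, was 53.8 against 2.45 CPM, the latter from 1 UMI.

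Excitatory-like nuclei of the adult were set beside those of day 70, with 119 and 494 nuclei. Of 36 members, 7 were at least 2-fold higher in the adult (EPHB3, SEMA5B, SEMA6B, EFNA5, SEMA4D, SLIT1 and SEMA4A) and 6 lower (EPHA7, EPHA3, ROBO2, EPHA4, SEMA3A and EPHA5), beside 24.5% and 6.65% of genes. The higher members made up a smaller share than the higher genes did over all genes. The 6 lower members are 4 EphA receptors, a SLIT receptor and a secreted semaphorin. At a fold of 4 only EPHB3 was higher and only EPHA3 lower, beside 5.14% and 2.08% of genes. EPHA3 was 333 CPM in the adult (74 UMIs) against 1442 CPM at day 70, and EPHA5 was 805 CPM (179 UMIs) against 2598 CPM. EFNA5 was 184 CPM (41 UMIs) against 78.3 CPM. EPHB3 rested on 7 UMIs in the adult. The nuclei lay in different clusters: cluster 29 held 81 of the adult and 257 of the day 70 nuclei, and cluster 38, with EPHA3 among its leading genes, 4 and 120. Within cluster 29, EPHA3 was 178 CPM in the adult (34 UMIs) against 1132 CPM, and EPHA5 was 813 CPM (155 UMIs) against 2299 CPM. DCC, at 760 against 1074 CPM, and NRP1, at 184 against 343 CPM, differed by less than 2-fold. In the adult excitatory-like nuclei the 9 excitatory markers summed to 315 CPM against 874 CPM at day 70, the oligodendrocyte markers to 175 against 40.1 CPM and the microglia markers to 225 against 103 CPM. SEMA4D, 121 against 60.6 CPM here, was 435 CPM in the oligodendrocyte-like nuclei of the adult. The part of these markers in the differences was not tested.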

How the data were processed

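Per the labels and the study's methods, the authors aligned the reads of each 10x 3′ library to Sscrofa11.1 with Cell Ranger (version 2.20 in the submitters' processing notes), counted exonic and intronic reads, and deposited tables of UMI counts per gene and cell. These counts are not normalized. The deposited cells were used without a further filter. Cells were clustered from log-normalized counts on 3000 variable genes and 50 principal components, corrected between libraries by mutual nearest neighbours, with Louvain clustering at resolution 1.6, and clusters were named from fixed markers. The members, the markers and the listed pathway genes were left out of the variable genes. Doublets were ranked with Scrublet at 0.8% per 1000 cells and left in, since its automatic threshold called none in E60_1 and E60_2. UMIs were then summed per library and class (at least 20 cells). For the described comparisons a minimum of 150000 UMIs per sum was set after seeing the data, so that 3 UMIs do not exceed 20 CPM. For fold differences 0.5 UMI was added. Single levels are also given from smaller sums. Day 60 and day 70 were compared with edgeR 4.0.16 (quasi-likelihood test, TMM) and, as an alternative, DESeq2 1.42.0, in R 4.3.3, at an adjusted p of 0.05, wherever a class had 2 or more libraries at each day. The clustering and test steps were tried on simulated data. The simulated counts of the test step held no differences in cell makeup between libraries, so they cannot show how the test performs on these libraries. Other steps used Python 3.11.15, pandas 2.3.3 and scikit-learn 1.9.0. The precision of a level follows its UMI count, and the limits given for a count of 0 cover counting error only. All 60 symbols matched RefSeq. The members, lists and tests were chosen with earlier results of these data known. Library values were given for genes called by DESeq2 and for up to 3 genes per role with the highest level in a class of at least 50 cells. Some of these were given in part or as lowest, median and highest.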

Additional observations from a re-analysis of the deposited data

Results flagged for a closer look

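EFNA3, an A-type ephrin, was listed in the count tables by its Ensembl identifier only and so was not among the 60 genes chosen by symbol. It had 6 UMIs over all kept cells, a level of 0.0304 CPM, and was singled out because it is a signal outside the genes compared. Excitatory-like cells had 0.0626 CPM, Purkinje-like cells 0.624 CPM, and the other 13 classes of 50 or more cells none.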

How the results depend on the processing

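Of the alternatives tried, 67 left a count within 1.5 times its value or on its side of the threshold, 11 moved it further and 7 added calls between day 60 and day 70. With E60_3 as the only day 60 library, the median log2 difference of the members in all kept cells turned from 0.25 to -0.12. The number of members highest in excitatory-like cells was 3 in place of 5 without batch correction. For oligodendrocyte-like cells it was 3 in place of 5 without batch correction, 2 by the median over libraries and 3 without E60_1 and E60_2. Without these 2 libraries, an alternative added after the data were seen, 7 members in place of 2 were higher and 2 in place of 1 lower in oligodendrocyte precursor-like cells than in astrocyte and radial glia-like cells. At a fold of 4 in place of 2, the adult counts fell to 0 higher members in microglia-like cells, 0 lower in endothelial-like and 0 lower in astrocyte and radial glia-like cells, and 1 higher and 1 lower in excitatory-like nuclei. PLXNC1 stayed higher in astrocyte and radial glia-like cells, beside 1.58% of genes. In oligodendrocyte-like cells 8 of 27 members stayed higher and 7 lower, beside 13.4% and 5.69% of genes. Between the 2 days, DESeq2 called 7 members in all kept cells, 2 in astrocyte and radial glia-like and 2 in microglia-like cells, where edgeR called 0. Over all genes DESeq2 called 16.6%, 5.09% and 2.43%. Leaving out 1 library at a time gave 0 to 27 calls in all kept cells, the 27 without E60_3 and 2 without E70_3, and 0 to 2 in astrocyte and radial glia-like cells, 2 without E60_3 and 1 without E70_3. Of all genes, 34.6% were called in all kept cells without E60_3 and 8.7% without E70_3. In astrocyte and radial glia-like cells these shares were 0.388% and 6.84%. A fit with the replicate block called 0 members in each of the 3 groups. The correlations of same-numbered libraries in all kept cells were -0.168, 0.028 and -0.126. E60_1 with E70_1 and E60_3 with E70_3 shared a sequencing pool. Because the values were first centred within the few libraries of each day, these correlations cannot show whether the libraries were paired. Admitting libraries of at least 10 microglia-like cells, also added after the data were seen, left 0 calls. The cause of these shifts was not tested. Classes with fewer than 2 libraries at 1 of the days were fitted under none of these settings.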
